A study of Mus musculus with 36 samples.

Results

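The vacuolar H+-ATPase (V-ATPase) and the proteins of the lysosomal membrane were followed in mice that model translocation renal cell carcinoma, a kidney cancer driven by fusions of the transcription factor TFE3. The 44 genes were taken by symbol, from a list of V-ATPase subunits and of lysosomal membrane proteins and channels, out of 53379 genes counted. They are 10 genes of the membrane (V0) sector of the pump, 12 of its cytosolic (V1) sector, 2 accessory subunits, 7 structural membrane proteins, 6 transporters and 7 genes for ion channels or an ion exchanger. Every symbol matched 1 gene, and all 44 passed the filter on low counts in every comparison. RNA came from formalin-fixed, paraffin-embedded tissue in 36 libraries. In Sglt2-Cre; ASPSCR1-TFE3 LSL/+ mice, Cre driven by the promoter of the proximal tubule glucose transporter Sglt2 switches on an ASPSCR1-TFE3 allele held silent by a floxed stop cassette. From 6 such mice came kidney tumors (11 libraries, 6 mice), retro-orbital tumors (4 mice), brain tumors (3 mice) and kidney labelled normal in the samples and non-transformed in the design text (4 mice). Kidneys of 3 Sglt2-Cre mice without the fusion allele (6 libraries) were the adult controls, so Cre was shared by both adult arms. Pax8-Cre; ASPSCR1-TFE3 LSL/+ fetuses, in which the promoter of the nephron lineage factor Pax8 drives Cre, gave 5 kidneys labelled dysmorphic. The 3 control fetal kidneys were labelled Pax8-Cre, while the study's design text allows either the Cre or the fusion allele alone. Fetal controls were age-matched by the design text, and no ages were given in the sources used here.

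The V-ATPase uses ATP to pump protons into lysosomes, and its V0 sector forms the pore while its V1 sector hydrolyses ATP. Several subunits exist as isoforms, some made in most cells and others mainly in acid-secreting cells such as the intercalated cells of the collecting duct, which place the pump in their plasma membrane. TFE3 and its relatives TFEB and MITF are known as regulators of lysosomal genes, acting through short DNA motifs near the start of transcription.

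Libraries held 80205573 to 121415057 counts. Levels are CPM, counts scaled to a common library size by TMM over all libraries, and libraries of 1 animal and group were summed, so that n counts animals. Gpnmb, a lysosomal glycoprotein gene often used as a readout of TFE3 activity, was 1.60 to 2.51 CPM in control kidneys and 2940 to 7215 CPM in kidney tumors. Mouse Tfe3 itself was 18.2 to 25.5 CPM in control kidneys and 18.5 to 35.1 CPM in kidney tumors, and whether reads of the fusion allele are counted there was not tested. The kidney tumors were mixed in makeup. Summed levels of 7 proximal tubule markers were 11323 to 12522 CPM in control kidneys, but 7878 and 7528 CPM in the kidney tumors of mouse 4 and mouse 5, 2480 CPM in mouse 1, and 629 to 640 CPM in mice 2, 3 and 6. Results that rest on kidney tumors are therefore given without mice 4 and 5 as well where that changed them, a choice made after these values were seen. Among kidney tumors these also had the lowest levels of Mcoln3 and Atp6v0a1 and the highest of Atp6v0a4, so larger changes and more calls without them follow from the choice, and such values are a description that supports no call. Other markers in kidney tumors included neuron and glia genes (28.5 to 205 CPM, 2 of 9 called higher), pigment cell genes (1.57 to 220 CPM, 2 of 5 tested called higher) and skeletal muscle genes (1.85 to 92.4 CPM, 0 of 5 called).

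Per kb of exon, the most abundant of the 44 transcripts in control kidneys were Lamp1 (323 CPM per kb), the major heavily glycosylated protein lining the lysosome, Laptm4a (278 CPM per kb) and Cd63 (167 CPM per kb). These 3 also stood first in kidney tumors, at 593, 364 and 358 CPM per kb, and in retro-orbital and brain tumors. What changed was the order below them. Mcoln3, which encodes the endolysosomal cation channel TRPML3, ranked 35 of 44 in control kidneys at 7.87 CPM per kb and 4 of 44 in kidney tumors at 320 CPM per kb. Atp6v0a4, a V0 isoform known from intercalated cells, moved the other way, from rank 6 (84.0 CPM per kb) to rank 28 (19.0 CPM per kb). In the tumors outside the kidney, Mcoln3 again ranked 4, at 313 and 259 CPM per kb in retro-orbital and brain tumors.

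**Figure D1:**
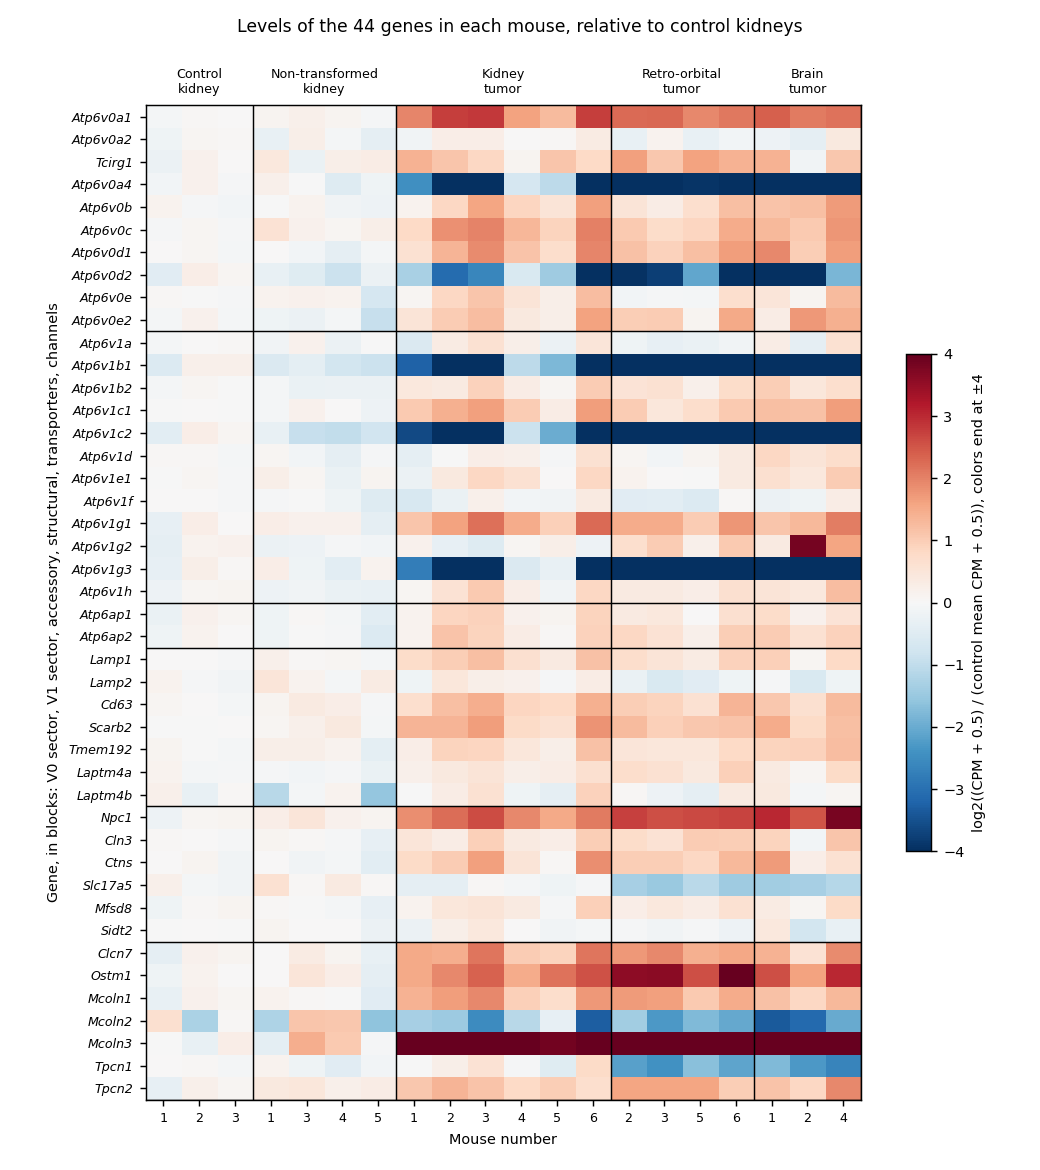
Heat map of the 44 genes (rows, in blocks by role) in each adult mouse (columns, by group), colored by the log2 ratio of its CPM to the control kidney mean, red for higher and blue for lower. Mcoln3, Atp6v0a1, Npc1 and Ostm1 are red in every tumor, and the 5 intercalated cell isoforms are blue in most tumor columns.

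Kidney tumors were compared to control kidneys to ask which of these genes change with the fusion. In all, 15 of the 44 genes were called higher and 0 lower at an edgeR adjusted p under 0.05, while the background over 23578 tested genes was 12.5% higher and 6.51% lower. An unadjusted p under 0.05 was found for 26 of the 44 and for 8536 of the 23578. The median log2 fold change of the 44 was 0.60, compared to 0.05 over all genes tested. By role, calls were made for 5 of 7 channels and exchanger, 4 of 10 V0 sector genes, 3 of 7 structural proteins, 1 of 6 transporters, 2 of 12 V1 sector genes and 0 of 2 accessory subunits, and differences between roles were not tested. In bulk tissue, fewer cells of a type and less RNA per cell cannot be told apart. The count moved with the samples in the fit, as did that over all genes. The 15 became 7, 7 and 4 without control mouse 1, 2 and 3 and 24 without the kidney tumor of mouse 5, while the 4474 calls over all genes became 2084, 1163, 1207 and 5856. With the kidney tumors of mice 4 and 5 left out, 26 of the 44 were called higher and 6 lower, compared to 4181 and 3664 of 23029 genes tested.

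The ion channels gave the largest change. Mcoln3 (ENSMUSG00000036853.5, chromosome 3, 146117450 to 146141806, GRCm38) was 26.8, 22.3 and 32.8 CPM in the control kidneys, and 400, 1129 and 1717 CPM at the lowest, median and highest of the 6 kidney tumors. The lowest tumor, that of mouse 5, still stood far above every control. Its log2 fold change came to 5.37 (SE 0.54, edgeR adjusted p 0.000397), higher in 6 of 6 mice. Mcoln1, encoding the lysosomal calcium release channel TRPML1, was 60, 82.7 and 77.7 CPM in controls and 119, 215 and 277 CPM at the lowest, median and highest tumor, without overlap. It rose by 1.49 in log2 units (SE 0.29, edgeR adjusted p 0.0106). Their relative Mcoln2 was 17.3, 4.31 and 11.3 CPM in controls and 0.655 to 8.68 CPM in tumors, with log2 fold change -1.48 (SE 0.68, edgeR adjusted p 0.146), and was not called.

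Clcn7 and Ostm1 encode the chloride-proton exchanger of lysosomes and its obligate partner subunit. Ostm1 (chromosome 10, 42583822 to 42702459) was 13.7, 17.1 and 15.8 CPM in controls and 44.4, 65.8 and 92.5 CPM at the lowest, median and highest tumor, with log2 fold change 2.10 (SE 0.28, edgeR adjusted p 0.00171). Clcn7 was 35.5, 51.4 and 49.3 CPM in controls and 84.1 to 204 CPM in tumors, with log2 fold change 1.65 (SE 0.34, edgeR adjusted p 0.0125). Both partners were thus higher in 6 of 6 mice. Of the TPC channels, which release calcium and sodium from endosomes and lysosomes, Tpcn2 was 5.62 to 8.32 CPM in controls and 11.6 to 19.0 CPM in tumors (log2 fold change 1.09, SE 0.21, edgeR adjusted p 0.0104). Tpcn1, at 190 to 205 CPM in controls and 143 to 340 CPM in tumors, was not called (0.26, edgeR adjusted p 0.498).

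In the V0 sector, 4 of 10 genes were called higher. Atp6v0a1 (ENSMUSG00000019302.16, chromosome 11, 101009452 to 101063719), the a1 isoform of the large membrane subunit, was 114, 125 and 123 CPM in controls and 293, 642 and 866 CPM at the lowest, median and highest tumor. All 6 tumors lay above all controls, and the log2 fold change came to 2.35 (SE 0.40, edgeR adjusted p 0.00614). Atp6v0c, the proton-carrying ring subunit, rose by 1.61 (SE 0.33, edgeR adjusted p 0.0117) and was 11.2 to 12.2 CPM in controls and 20.5 to 47.7 CPM in tumors. It has annotated processed pseudogenes whose reads may be shared with it, so its level is uncertain. Atp6v0d1, which joins the ring to the central stalk, rose by 1.39 (SE 0.34, edgeR adjusted p 0.022) and was 70.3 to 79.3 CPM in controls and 114 to 290 CPM in tumors. Tcirg1, the a3 isoform known from osteoclasts, was 12.4, 16.7 and 14.9 CPM in controls and 16.0 to 39.4 CPM in tumors (0.98, edgeR adjusted p 0.033), and the tumor of mouse 4 lay within the control range. The osteoclast markers, of which 0 of 4 tested were called, summed to 23.7 to 33.2 CPM in controls and 11.7 to 26.6 CPM in these tumors. The macrophage markers, of which 4 of 9 were called higher, summed to 230 to 263 CPM in controls and 243 to 1045 CPM in tumors. The tumor of mouse 1 was the highest and that of mouse 4 the lowest for both Tcirg1 and this sum, whose part in the call was not tested. Atp6v0a2, a Golgi-enriched isoform, did not separate the groups (91.5 to 109 CPM and 93.6 to 129 CPM). The ring subunit Atp6v0b and the small e subunits Atp6v0e and Atp6v0e2 had log2 fold changes of 1.05, 0.75 and 0.96 and missed the threshold (edgeR adjusted p 0.0574, 0.0811 and 0.0691), although Atp6v0e and Atp6v0e2 did not overlap between the groups.

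The V1 sector held 2 called genes. Atp6v1g1, a peripheral stalk subunit, was 48.4, 73.4 and 61.4 CPM in controls and 119, 180 and 293 CPM at the lowest, median and highest tumor, and rose by 1.72 (SE 0.34, edgeR adjusted p 0.011). Atp6v1c1, a subunit that connects the sectors, was 275 to 282 CPM in controls and 340 to 893 CPM in tumors, and rose by 1.28 (SE 0.30, edgeR adjusted p 0.0198). The catalytic and core subunits were not called. Their log2 fold changes were 0.22 for Atp6v1a, 0.58 for Atp6v1b2, 0.16 for Atp6v1d, 0.48 for Atp6v1e1, -0.04 for Atp6v1f and 0.53 for Atp6v1h, with edgeR adjusted p-values from 0.104 to 0.905. The accessory subunits Atp6ap1 and Atp6ap2 were also not called (0.58 and 0.66), nor was the neuronal isoform Atp6v1g2 (-0.08).

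Among structural membrane proteins, Scarb2, Cd63 and Lamp1 were called higher. Scarb2, which carries glucocerebrosidase to the lysosome, was 62.7, 62.7 and 63.8 CPM in controls and 97.2, 161 and 219 CPM at the lowest, median and highest tumor (log2 fold change 1.35, SE 0.28, edgeR adjusted p 0.0134). Cd63, a tetraspanin of late endosomes with an annotated pseudogene copy, was 583 to 641 CPM in controls and 982 to 1690 CPM in tumors (1.12, edgeR adjusted p 0.00919). Lamp1 was 842 to 883 CPM in controls and 1100 to 1981 CPM in tumors (0.90, edgeR adjusted p 0.0196), whereas its relative Lamp2 was 414 to 502 CPM and 401 to 616 CPM (0.19, edgeR adjusted p 0.41). Laptm4a and Tmem192 were above every control in 6 of 6 tumors but were not called (0.41 and 0.72, edgeR adjusted p 0.0667 and 0.0628), and Laptm4b was not called (0.30). Lysosomal membrane proteins are also abundant in macrophages. The 9 macrophage markers summed to 230 to 263 CPM in controls and 243 to 1045 CPM in tumors, 4 of them (C1qa, C1qb, C1qc and Lyz2) were called higher, none was near 0 in every library, and their part in these changes was not tested.

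Of the transporters, 1 of 6 was called. Npc1 (ENSMUSG00000024413.13), which exports cholesterol from the lysosome, was 30.7, 37.1 and 38.5 CPM in controls and 103, 143 and 219 CPM at the lowest, median and highest tumor, with log2 fold change 2.11 (SE 0.25, edgeR adjusted p 0.000946). Its exons overlap those of Rmc1 on the other strand over 511 bases, and whether counting used strand is not given in the sources used here. Ctns, the cystine exporter, had a log2 fold change of 1.15 with overlapping groups (edgeR adjusted p 0.0702). Slc17a5, the sialic acid exporter, differed by less than the spread between mice (43.0 to 54.6 CPM and 36.7 to 49.2 CPM). The remaining transporters Cln3, Mfsd8 and Sidt2 ranged from 0.08 to 0.63 on the log2 scale and were not called. Across the 15 called genes, Mcoln3, Atp6v0a1, Npc1 and Ostm1 were the 4 that remained called in each of the 9 fits that left out an animal and under each of the 8 other settings, with log2 fold changes of 5.20 to 5.70, 2.22 to 2.67, 1.97 to 2.29 and 1.97 to 2.21.

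**Figure D2:**
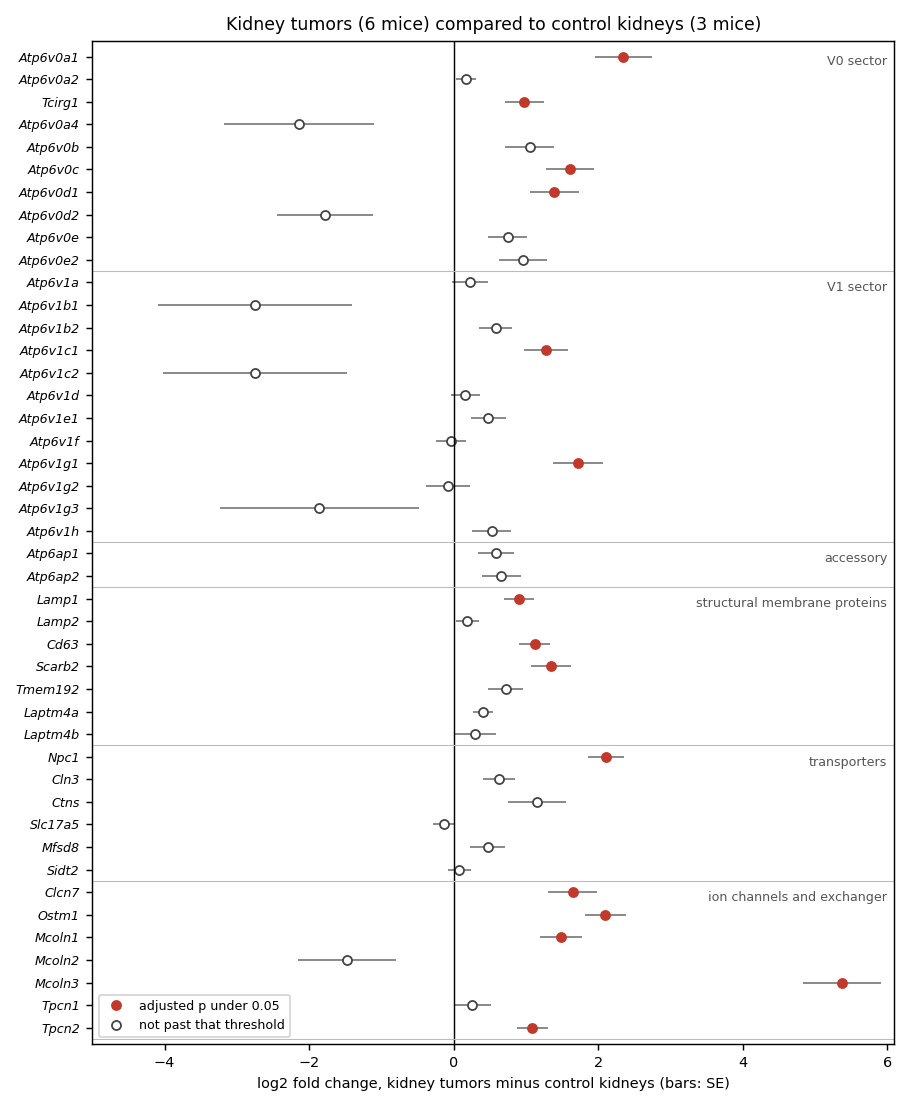
Log2 fold change of each of the 44 genes in kidney tumors (6 mice) relative to control kidneys (3 mice), with bars for the SE, grouped by role. Filled points are the 15 genes with an edgeR adjusted p under 0.05, all to the right of 0, and the 5 intercalated cell isoforms lie to the left with wide bars.

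Promoters were examined because the 44 genes were chosen for their function and the DNA motifs of TFE3 and its relatives are short and defined. RefSeq promoter windows on GRCm38.p6, running from 250 bases before to 50 bases after a RefSeq start site, matched 35 of the 44 genes. They were searched for CACGTG, a palindrome that reads the same on both strands, and for TCATGTGA on either strand. Neither motif contains the other. Of all 32851 windows, 7.15% held CACGTG and 0.986% TCATGTGA, and of 27025 genes 9.14% held either in at least 1 window. Of the 35 members, 10 (28.6%) held either, 9 with CACGTG and 1 with TCATGTGA. A match is a description of the letters and does not show binding. Among members called in kidney tumors against either kidney group or in the fetal comparison, 7 of 18 held a motif, compared to 3 of 17 among the rest (Mcoln2, Atp6v0e and Atp6v1a). The 7 called genes with a motif are printed from 160 bases before to 20 bases after that start site, 5′ to 3′ on the strand of the gene, with the motif in capitals, followed by Mcoln3 and Atp6v0a1, which had the highest log2 fold changes and held neither motif in this window. The stretches of Atp6v0c, Cln3, Mcoln3 and Atp6v0a1 lie within the bounds of their genes in GENCODE M21, so for these the letters do not describe the annotated gene start.
Clcn7, chr17:25133231-25133410, plus strand: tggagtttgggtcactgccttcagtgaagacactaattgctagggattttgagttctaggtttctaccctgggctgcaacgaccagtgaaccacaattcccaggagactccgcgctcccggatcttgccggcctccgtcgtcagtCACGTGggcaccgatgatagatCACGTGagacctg
Atp6v0c, chr17:24169431-24169610, minus strand: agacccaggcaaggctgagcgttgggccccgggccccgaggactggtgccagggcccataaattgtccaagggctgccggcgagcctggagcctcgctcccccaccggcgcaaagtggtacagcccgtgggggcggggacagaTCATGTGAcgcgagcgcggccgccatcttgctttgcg
Mcoln1, chr8:3500359-3500538, plus strand: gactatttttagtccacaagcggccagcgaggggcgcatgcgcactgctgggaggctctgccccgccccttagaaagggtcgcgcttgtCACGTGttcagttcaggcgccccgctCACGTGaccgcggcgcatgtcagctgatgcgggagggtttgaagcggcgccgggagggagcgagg
Atp6v0d1, chr8:105566045-105566224, minus strand: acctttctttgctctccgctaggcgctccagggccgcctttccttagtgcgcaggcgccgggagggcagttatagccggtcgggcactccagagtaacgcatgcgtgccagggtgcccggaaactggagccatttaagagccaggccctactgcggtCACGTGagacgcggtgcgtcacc
Lamp1, chr8:13159001-13159180, plus strand: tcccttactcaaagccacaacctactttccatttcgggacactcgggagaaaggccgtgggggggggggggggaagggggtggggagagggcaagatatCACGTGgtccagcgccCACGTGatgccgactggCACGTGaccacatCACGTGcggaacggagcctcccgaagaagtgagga
Atp6v0b, chr4:117887310-117887489, minus strand: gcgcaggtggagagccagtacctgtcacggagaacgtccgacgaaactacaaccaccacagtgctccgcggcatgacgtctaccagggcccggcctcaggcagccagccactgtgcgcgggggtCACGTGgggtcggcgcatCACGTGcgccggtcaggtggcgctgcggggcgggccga
Cln3, chr7:126583217-126583396, minus strand: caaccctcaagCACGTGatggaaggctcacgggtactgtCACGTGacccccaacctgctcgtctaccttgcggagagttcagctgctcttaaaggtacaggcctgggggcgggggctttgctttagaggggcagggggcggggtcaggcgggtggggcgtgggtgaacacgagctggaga
Mcoln3, chr3:146121631-146121810, plus strand: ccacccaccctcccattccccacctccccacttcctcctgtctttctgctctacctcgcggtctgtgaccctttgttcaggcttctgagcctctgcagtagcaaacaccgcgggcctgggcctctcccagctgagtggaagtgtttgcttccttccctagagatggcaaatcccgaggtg
Atp6v0a1, chr11:101010238-101010417, plus strand: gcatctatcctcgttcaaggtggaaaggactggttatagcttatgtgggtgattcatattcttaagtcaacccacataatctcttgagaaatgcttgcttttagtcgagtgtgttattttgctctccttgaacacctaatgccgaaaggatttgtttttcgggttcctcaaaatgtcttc
In Lamp1 the 4 copies of CACGTG began 61, 45, 28 and 15 bases before the start site. Mcoln1 held copies beginning 71 and 45 bases before the start, Atp6v0b 36 and 18 bases before it, Clcn7 15 bases before and 8 bases after it, Atp6v0d1 3 bases before it, and Cln3 149 and 121 bases before it. The copy of TCATGTGA in Atp6v0c began 17 bases before the start.

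The intercalated cell isoforms of the pump were the members with the lowest log2 fold changes in kidney tumors. Atp6v0a4 (ENSMUSG00000038600.12, chromosome 6, 38048483 to 38124586) was 386, 466 and 400 CPM in control kidneys. In the kidney tumors of mice 1 to 6 it was 76.0, 8.80, 9.28, 261, 200 and 10.7 CPM, so that every tumor lay below every control, by widely different amounts. Even in a single mouse it varied, at 385 and 133 CPM in the 2 kidney tumor libraries of mouse 4. The difference was not called (log2 fold change -2.14, SE 1.04, edgeR adjusted p 0.168). The other 4, Atp6v1b1, Atp6v1c2, Atp6v1g3 and Atp6v0d2, had log2 fold changes of -2.75, -2.75, -1.86 and -1.78, also not called. Other settings differed, since Atp6v0d2 was called lower by DESeq2 and without mouse 4, and all but Atp6v1g3 were called lower with every library as its own sample. With the kidney tumors of mice 4 and 5 left out, the log2 fold changes were -3.94 for Atp6v0a4, -2.43 for Atp6v0d2, -4.99 for Atp6v1b1, -5.31 for Atp6v1c2 and -4.47 for Atp6v1g3. These 5 and Mcoln2 are the 6 genes counted as lower in that fit, and the choice of tumors favors those calls. The 10 intercalated cell markers that are not members were also lower in sum in every tumor than in any control. Their sum was 389 to 648 CPM in controls and 54.2, 15.1, 4.66, 294, 215 and 3.79 CPM in the tumors of mice 1 to 6. Of these markers 0 of 10 were called, with a median log2 fold change of -2.49. The 7 proximal tubule markers summed to 11323 to 12522 CPM in controls and 2480, 629, 633, 7878, 7528 and 640 CPM in these tumors. In non-transformed kidneys Atp6v0a4 was 289 to 481 CPM, intercalated cell markers 271 to 415 CPM and proximal tubule markers 11386 to 14439 CPM. Which cells made the 5 isoforms was not tested, and intercalated cell isoform is used as a label. Atp6v0a4 shares 259 exon bases with D630045J12Rik on the same strand, and its level is uncertain to that extent.

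Within subunit families the balance of isoforms differed between groups. As a share of subunit a, per kb of exon, Atp6v0a4 made up 69.5% ± 1.34 (SD, n = 3) in control kidneys and 67.1% ± 5.14 (n = 4) in non-transformed kidneys. In kidney tumors it was 16.1% ± 18.7 (n = 6), ranging from 1.17% to 41.3%, and in retro-orbital and brain tumors 1.60% ± 2.62 (n = 4) and 0.557% ± 0.400 (n = 3). The share of Atp6v0a1 went the other way, at 15.3% ± 0.774 in control kidneys, 66.5% ± 19.6 in kidney tumors, 77.0% ± 3.66 in retro-orbital tumors and 80.0% ± 4.32 in brain tumors. In level, Atp6v0a1 rose in kidney tumors, and Atp6v0a4 lay below controls in every tumor without being called. In the B, C, d and G families the intercalated cell isoform also had a lower mean share. Atp6v1b1 was 28.0% ± 4.94 of subunit B in control kidneys and 4.46% ± 5.82 in kidney tumors, Atp6v1c2 33.9% ± 5.37 and 4.00% ± 5.44 of subunit C, Atp6v0d2 40.1% ± 5.96 and 8.60% ± 7.21 of subunit d, and Atp6v1g3 56.9% ± 0.526 and 11.5% ± 15.0 of subunit G. Subunit e, whose isoforms are both widely expressed, had Atp6v0e at 62.4% ± 2.57 in control kidneys and 59.4% ± 3.84 in kidney tumors, with overlapping ranges. Shares were described without a test. Without division by exon length, Atp6v1c2 made up 16.7% of subunit C in control kidneys and 1.66% in kidney tumors.

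**Figure D3:**
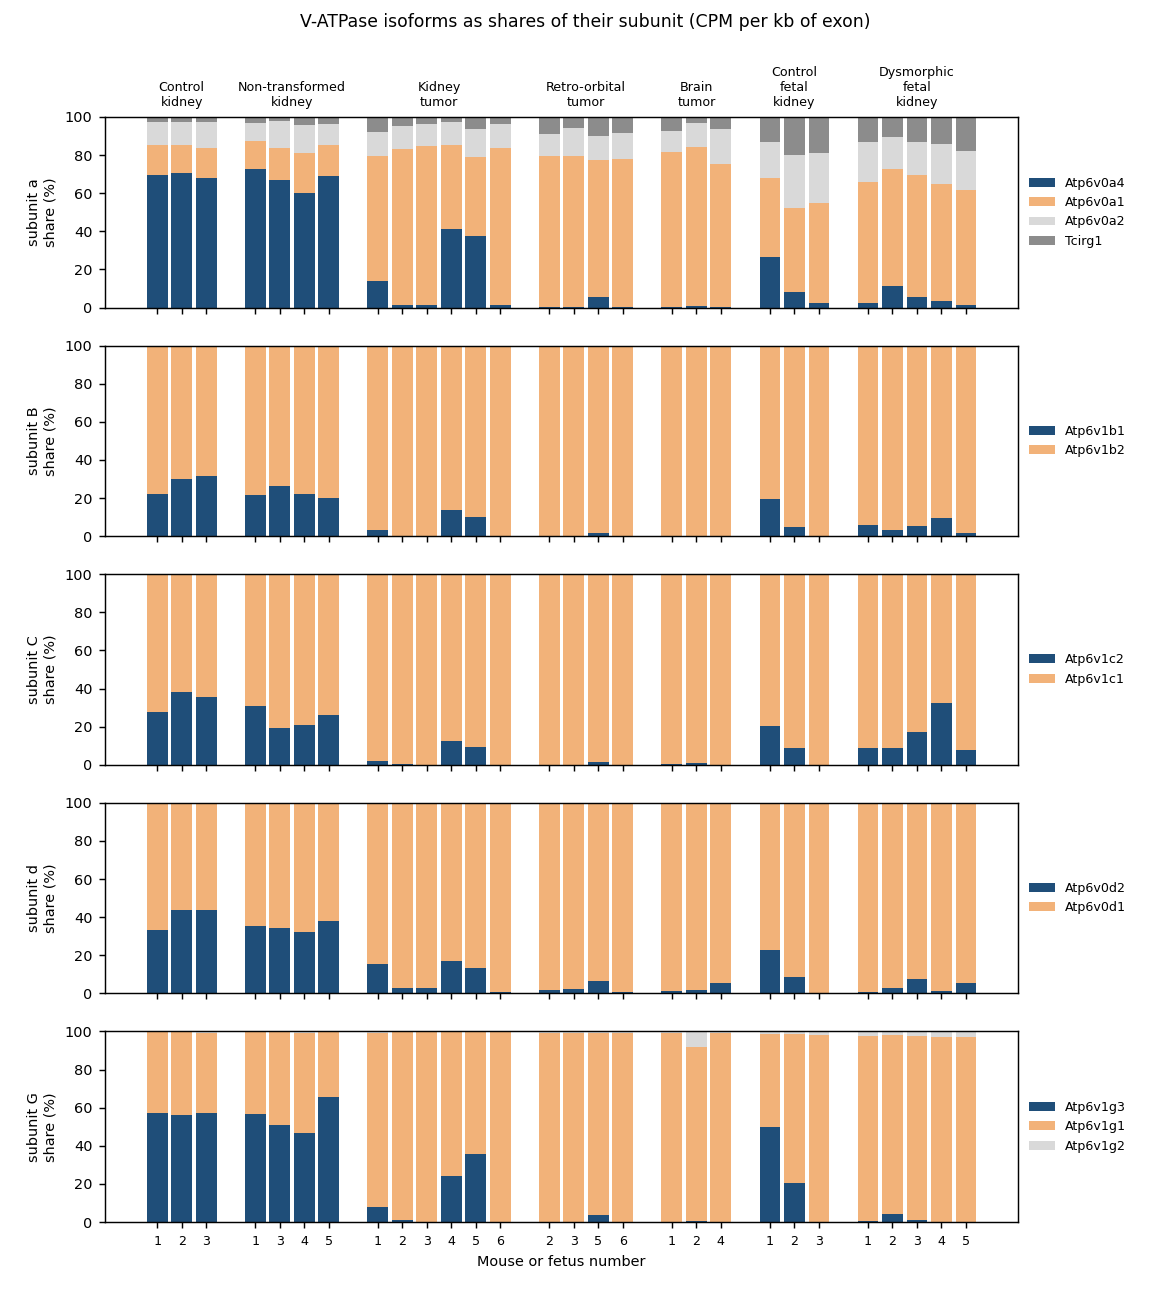
Stacked bars of the isoforms of subunits a, B, C, d and G as a percentage of their family (CPM per kb of exon), 1 bar for each mouse or fetus, ordered by group. The intercalated cell isoforms fill a large part of every control and non-transformed kidney, and Atp6v0a4 shrinks to under 2% of subunit a in 3 of 6 kidney tumors and is largest among kidney tumors in mice 4 and 5.

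Kidney tumors were also set against the non-transformed kidney of mice 1, 3, 4 and 5, which share the genotype. These tumors are the samples used above, so the comparisons are not independent. Of the 44 genes, 20 were called higher and 1 lower, compared to 12.1% higher and 5.02% lower among all 21930 genes tested. Of the 15 genes higher against controls, 14 were higher here too, all but Tcirg1 (0.73, edgeR adjusted p 0.0657). The 6 further genes were Atp6v0b, Atp6v0e2, Atp6v1b2, Cln3, Ctns and Laptm4a. With mouse as a block, 7 were called, namely Mcoln3 (4.33), Atp6v0a1 (1.78), Ostm1 (1.76), Npc1 (1.70), Atp6v1g1 (1.34), Clcn7 (1.33) and Mcoln1 (1.28), with edgeR adjusted p-values from 0.00764 to 0.0371. Over all genes the block left 847 of 20575 called, compared to 3755 of 21930 without it. The count was 11 without mouse 1 and 10 without mouse 3, where 1423 and 1252 of all genes were called. Without the kidney tumors of mice 4 and 5, 27 of the 44 were called higher and 6 lower, compared to 3577 and 3538 of 21321 genes tested.

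Mcoln3 was 20.8, 75.5, 57.0 and 26.4 CPM in the non-transformed kidneys of mice 1, 3, 4 and 5, each far below the tumor of the same mouse (950, 1489, 795 and 400 CPM). Its log2 fold change came to 4.59 (SE 0.55, edgeR adjusted p 0.000645). Npc1 was 42.7, 49.4, 39.6 and 38 CPM in these kidneys (1.80, edgeR adjusted p 0.000471), and Atp6v0a1 was 129, 140, 131 and 116 CPM (2.20, edgeR adjusted p 0.00238). All 3 genes were higher in 6 of 6 tumors than in any non-transformed kidney. The single lower gene was Slc17a5, at 72.2, 49.3, 61.2 and 48.8 CPM in non-transformed kidneys and 36.7 to 49.2 CPM in tumors (-0.48, edgeR adjusted p 0.0466). Its groups overlapped, and neither this call nor that of Cln3 was kept in any fit that left out a mouse.

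Whether the genes already differ in non-transformed kidney that carries the fusion allele was read against control kidneys. By edgeR, 0 of the 44 genes were called, 3 had an unadjusted p under 0.05, compared to 2462 of 21019 over all genes, and DESeq2 also called 0. Of all 21019 genes tested, 2 (0.00952%) were called, so the background was near 0 as well. The 3 genes were Npc1 (log2 fold change 0.29), Atp6v1b1 (-0.61) and Atp6v1c2 (-0.69). The last 2 are intercalated cell isoforms. The 10 intercalated cell markers that are not members summed to 271 to 415 CPM in non-transformed and 389 to 648 CPM in control kidneys, with a median log2 fold change of -0.59, 6 at an unadjusted p under 0.05 and 0 called. Their part in these values was not tested. Mcoln3 had the highest log2 fold change, 0.74, with 22.3 to 32.8 CPM in controls and 20.8 to 75.5 CPM in non-transformed kidneys, where those of mice 3 and 4 lay above every control. The median of the 44 was -0.01.

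Tumors outside the kidney were compared to kidney tumors, and both comparisons share the kidney tumor samples. In retro-orbital tumors 2 genes were called higher (Ostm1 and Atp6v1g2) and 3 lower (Tpcn1, Slc17a5 and Lamp2), compared to 8.26% higher and 9.45% lower among 22136 genes tested. In brain tumors 2 were higher (Atp6v1g2 and Npc1) and 2 lower (Tpcn1 and Slc17a5), compared to 4.54% and 4.20% among 23391 genes. Of the 15 genes raised in kidney tumors over controls, 14 were not called in either direction at the retro-orbital site and 14 at the brain site. Mcoln3 was 1126, 1122, 772 and 1315 CPM in the retro-orbital tumors of mice 2, 3, 5 and 6 and 1056, 542 and 1096 CPM in the brain tumors of mice 1, 2 and 4, within the range of kidney tumors. The retro-orbital count was 3 without mouse 2 and 3 without mouse 6, where the 3919 calls over all genes became 1805 and 1775. In brain tumors it was 0 without mouse 2, 2 without mouse 6 and 2 without the kidney tumors of mice 4 and 5 (Tpcn1 and Slc17a5), where the 2044 calls over all genes became 300, 1203 and 1306. With mouse as a block over 3 pairs, 0 of the 44 and 0 of all 21827 genes tested were called in brain tumors, with 2870 at an unadjusted p under 0.05, so this fit does not set the members apart. With the block the retro-orbital count was 6, compared to 2677 of 20462 genes, as Atp6v1g2 was lost (1.21, edgeR adjusted p 0.102) while Atp6v0a4 (-2.86, edgeR adjusted p 0.0206) and Atp6v1c2 (-1.79, edgeR adjusted p 0.0347) were called lower.

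Tpcn1 (chromosome 5, 120534153 to 120588673) was 43.6, 36.9, 61.5 and 45.5 CPM in retro-orbital tumors and 58.3, 39.9 and 31.5 CPM in brain tumors, while kidney tumors ranged from 143 to 340 CPM with a median of 215 CPM. No sample at either site reached the lowest kidney tumor. Its log2 fold change was -2.36 in retro-orbital tumors (SE 0.27, edgeR adjusted p 0.00139) and -2.34 in brain tumors (SE 0.34, edgeR adjusted p 0.00861). Control kidneys, at 190 to 205 CPM, lay within the range of kidney tumors. Slc17a5 (chromosome 9, 78536488 to 78588041) was 18.4, 16.5, 22.2 and 17.5 CPM in retro-orbital tumors, 17.9, 18.6 and 21.0 CPM in brain tumors, and 36.7 to 49.2 CPM in kidney tumors. Both sites were lower without overlap, by -1.23 (SE 0.14, edgeR adjusted p 0.00139) and -1.06 (SE 0.16, edgeR adjusted p 0.0111). With mouse as a block the 2 genes were still called in retro-orbital tumors (-2.38 and -1.20, edgeR adjusted p 0.0214 and 0.0194) and not in brain tumors (-2.26 and -0.99, edgeR adjusted p 0.267 and 0.305). Without the kidney tumors of mice 4 and 5, which had the lowest Tpcn1 of the kidney tumors, the log2 fold changes were -2.48 and -1.15 in retro-orbital tumors and -2.53 and -1.04 in brain tumors.

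Ostm1 was 190, 196, 96.2 and 252 CPM in retro-orbital tumors, each above the highest kidney tumor (92.5 CPM), and rose by 1.44 over kidney tumors (SE 0.28, edgeR adjusted p 0.00744). In brain tumors it was 96.0, 48.8 and 129 CPM, and it was not called there. Its partner Clcn7 was 123 to 172 CPM in retro-orbital tumors, within the range of kidney tumors. Npc1 was 293, 206 and 501 CPM in brain tumors and rose by 1.23 (SE 0.29, edgeR adjusted p 0.0362), a call kept in 1 of the 6 fits that left out a mouse. Retro-orbital tumors, at 214 to 239 CPM, were not called for Npc1 (0.56, edgeR adjusted p 0.0621). Atp6v1g2, the neuronal G isoform, was 2.24, 29.7 and 5.92 CPM in the brain tumors of mice 1, 2 and 4, compared to 0.993 to 2.01 CPM in kidney tumors, and rose by 3.13 (SE 0.66, edgeR adjusted p 0.0253). The 9 neuron and glia markers followed the same order in these brain tumors, at 124, 1665 and 431 CPM, compared to 28.5 to 205 CPM in kidney tumors, and their part in this result was not tested. The call of Atp6v1g2 in brain tumors was lost without mouse 2, 3 or 6, without the kidney tumors of mice 4 and 5 and with mouse as a block (2.15, edgeR adjusted p 0.486), and in retro-orbital tumors it was kept in 3 of 6 fits with a mouse removed. The call of Npc1 was lost with the block as well (1.17, edgeR adjusted p 0.34). Lamp2 was 378, 296, 327 and 403 CPM in retro-orbital tumors and fell by 0.57 on the log2 scale (edgeR adjusted p 0.0225), with overlapping groups, a call kept in 1 of 6 fits with a mouse removed. Upper quartile scaling moved the median of all genes by 0.11 in the retro-orbital comparison and left 2 members lower and 3 higher. The calls over all 22136 genes turned the same way, to 2205 higher and 1608 lower, compared to 1828 and 2091 with TMM scaling.

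Brain tumors were compared to retro-orbital tumors directly. By edgeR 0 of the 44 genes were called compared to 1.73% among 21037 genes tested, and 7 of the 44 had an unadjusted p under 0.05, compared to 4527 of the 21037. DESeq2 called 3 (Atp6v1e1, Atp6v1d and Tmem192, all higher in brain tumors), compared to 3087 of 21037 over all genes. A joint fit of all groups called 2, compared to 3096 of 23641. Of the intercalated cell isoforms, Atp6v0a4 was 1.63, 0.486, 27.1 and 2.52 CPM in retro-orbital tumors, where mouse 5 stood apart, and 1.41, 4.69 and 2.35 CPM in brain tumors. Atp6v0d2 was 4.55, 5.18, 17.8 and 3.40 CPM in retro-orbital and 4.35, 3.56 and 21.2 CPM in brain tumors, where mouse 4 was close to the kidney tumor mean of 22.2 CPM.

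**Figure D4:**
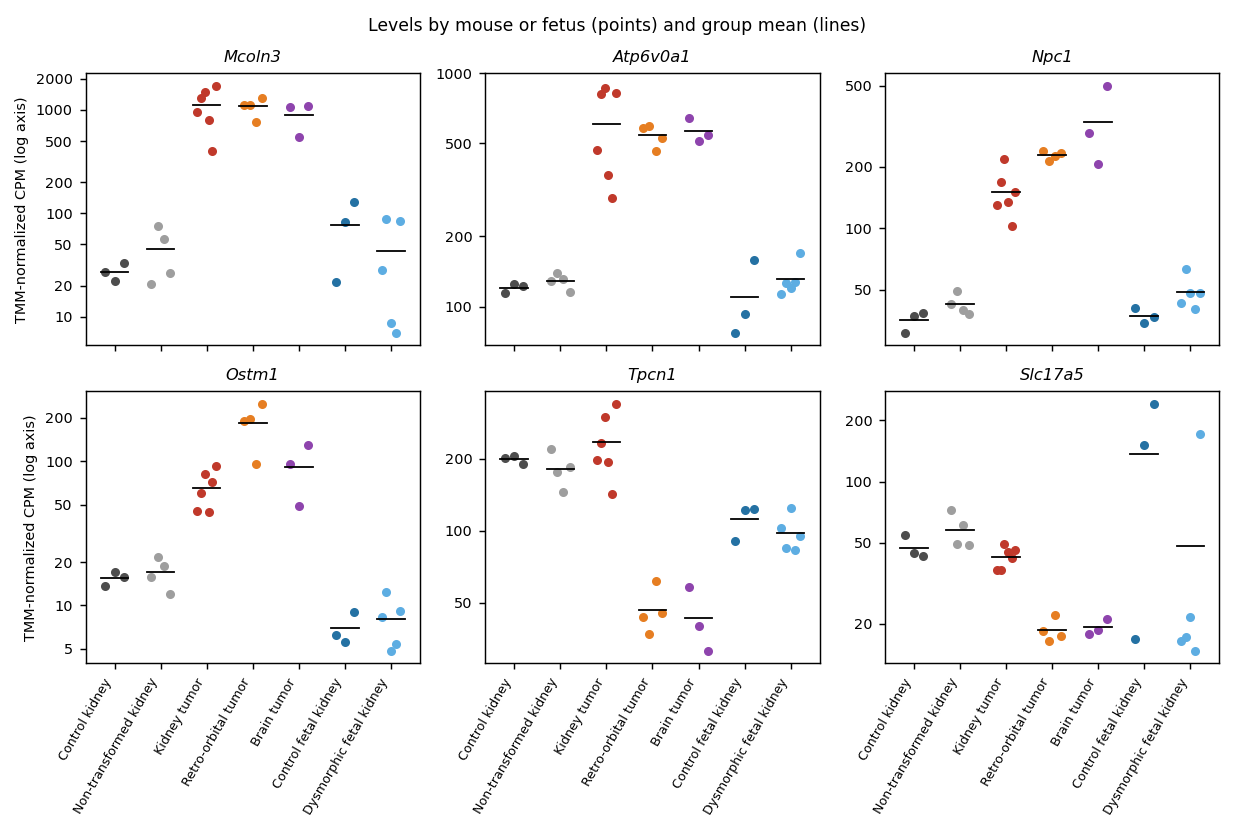
TMM-normalized CPM on a log axis of Mcoln3, Atp6v0a1, Npc1, Ostm1, Tpcn1 and Slc17a5 by group, a point for each mouse or fetus and a line for the group mean. The first 4 genes are higher in all tumors than in adult kidneys, Tpcn1 and Slc17a5 are lower in retro-orbital and brain tumors than in kidney tumors, and Slc17a5 splits the fetuses into high (152 to 242 CPM) and low (14.7 to 21.7 CPM) samples.

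Dysmorphic kidneys of the Pax8-Cre fetuses were read against the control fetal kidneys. By edgeR 0 of the 44 genes were called compared to 2.67% of all 22690 genes tested, and 7 of the 44 had an unadjusted p under 0.05, compared to 4609 of the 22690. The 605 calls over all genes became 0 when dysmorphic fetus 1, 3 or 4 or control fetus 1, 2 or 3 was left out, 1247 without dysmorphic fetus 2, 1141 without dysmorphic fetus 5, and 5 with sex as a covariate. DESeq2 called 3 of the 44 and 2722 of all genes. The median log2 fold change was -0.25, and 13 of the 44 were above 0. Scarb2 came nearest to the threshold. It was 36.5, 46.5 and 56.1 CPM in controls and 66.8, 77.2, 84.7, 74.7 and 76.7 CPM in dysmorphic kidneys, without overlap (log2 fold change 0.66, SE 0.16, edgeR adjusted p 0.0644). Upper quartile scaling put it past the threshold. Cd63 was 229, 177 and 236 CPM in controls and 281, 334, 277, 352 and 282 CPM in dysmorphic kidneys, also without overlap (0.47, edgeR adjusted p 0.115). Both were called by DESeq2 (0.68 and 0.48, adjusted p 0.00503 and 0.0459). Macrophage markers summed to 181 to 207 CPM in control and 297 to 562 CPM in dysmorphic kidneys, with 2 of 9 called higher, and their part in these values was not tested.

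The genes that rose most in adult tumors did not separate the fetal groups. Mcoln3 was 21.6, 82.4 and 128 CPM in controls and 28.3, 87.5, 8.66, 6.96 and 84.4 CPM in dysmorphic kidneys (-0.89, SE 0.92, edgeR adjusted p 0.637). Npc1 was 40.5, 34.5 and 36.9 CPM in controls and 42.9, 63.4, 48.3, 40.1 and 48.0 CPM in dysmorphic kidneys (0.33, SE 0.17, edgeR adjusted p 0.308), and 4 of 5 lay above every control. Atp6v0a1 was 77.0, 93.1 and 159 CPM and 113, 126, 120, 127 and 169 CPM (0.21, SE 0.24, edgeR adjusted p 0.68). As a share of subunit a, however, Atp6v0a1 was 41.4% to 52.4% in control and 60.1% to 63.9% in dysmorphic kidneys, so the ranges of shares did not overlap. Slc17a5 split the fetuses across the genotypes, at 16.8, 152 and 242 CPM in controls and 16.5, 17.2, 21.7, 14.7 and 172 CPM in dysmorphic kidneys (-1.55, SE 1.05, edgeR adjusted p 0.454).

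Control fetus 3 stood apart for the intercalated cell isoforms. Atp6v1g3 was 35.8, 8.20 and 0.0331 CPM in controls and 0.250, 1.74, 0.339, 0.0711 and 0.124 CPM in dysmorphic kidneys, so that only control fetus 3 was as low as the dysmorphic kidneys. Its log2 fold change came to -4.89 (SE 1.62, edgeR adjusted p 0.145), and DESeq2 called it (adjusted p 0.019). In the same control fetus Atp6v1b1 was 0.166 CPM and Atp6v0d2 was at 0 CPM, compared to 26.8 and 15.2 CPM in control fetus 1. The intercalated cell markers that are not members summed to 43.0 to 82.3 CPM in controls, with control fetus 3 at 51.3 CPM, and 18.9 to 40.8 CPM in dysmorphic kidneys. Proximal tubule markers summed to 1110 to 1339 CPM in controls and 22.6 to 817 CPM in dysmorphic kidneys, and skeletal muscle markers to 688 to 888 CPM and 1830 to 4235 CPM, with 4 of 5 called higher. Of the dysmorphic fetuses 3 of 5 were male and of the controls 1 of 3, and the count stayed at 0 with sex as a covariate or title prefix as a block.

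The adult and the fetal fusion effect were compared in a joint fit. It reuses the samples of both comparisons, and age, Cre driver and tissue state differ with the model and cannot be told apart. The adult effect exceeded the fetal effect for 13 of the 44 genes and fell short of it for 0, compared to 6.87% and 2.07% of all 24444 genes tested. The median difference was 0.99, with 0.16 over all genes. The largest was that of Mcoln3, 6.32 in log2 units (SE 1.18, edgeR adjusted p 0.00372). Npc1 differed by 1.82 (SE 0.31, edgeR adjusted p 0.00212), Mcoln1 by 2.19 (SE 0.49, edgeR adjusted p 0.013), Atp6v0a1 by 2.19 (SE 0.49, edgeR adjusted p 0.0134) and Ostm1 by 1.97 (SE 0.44, edgeR adjusted p 0.0122). These 5 remained called in each of the 17 fits that left out an animal. Tmem192, a lysosomal membrane protein widely used as a tag for lysosomes, was not called in either model alone (0.72 in adult tumors and -0.72 in dysmorphic kidneys) and differed by 1.48 (edgeR adjusted p 0.0253). The count was 5, 7 and 6 without control mouse 1, 2 or 3, 8 without control fetus 2, 5 without control fetus 3, 8 without dysmorphic fetus 4, and 21 without the kidney tumors of mice 4 and 5. Over all genes the 2185 calls became 1347, 956, 1029, 1219, 1236, 1523 and 4253 in these fits.

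**Figure D5:**
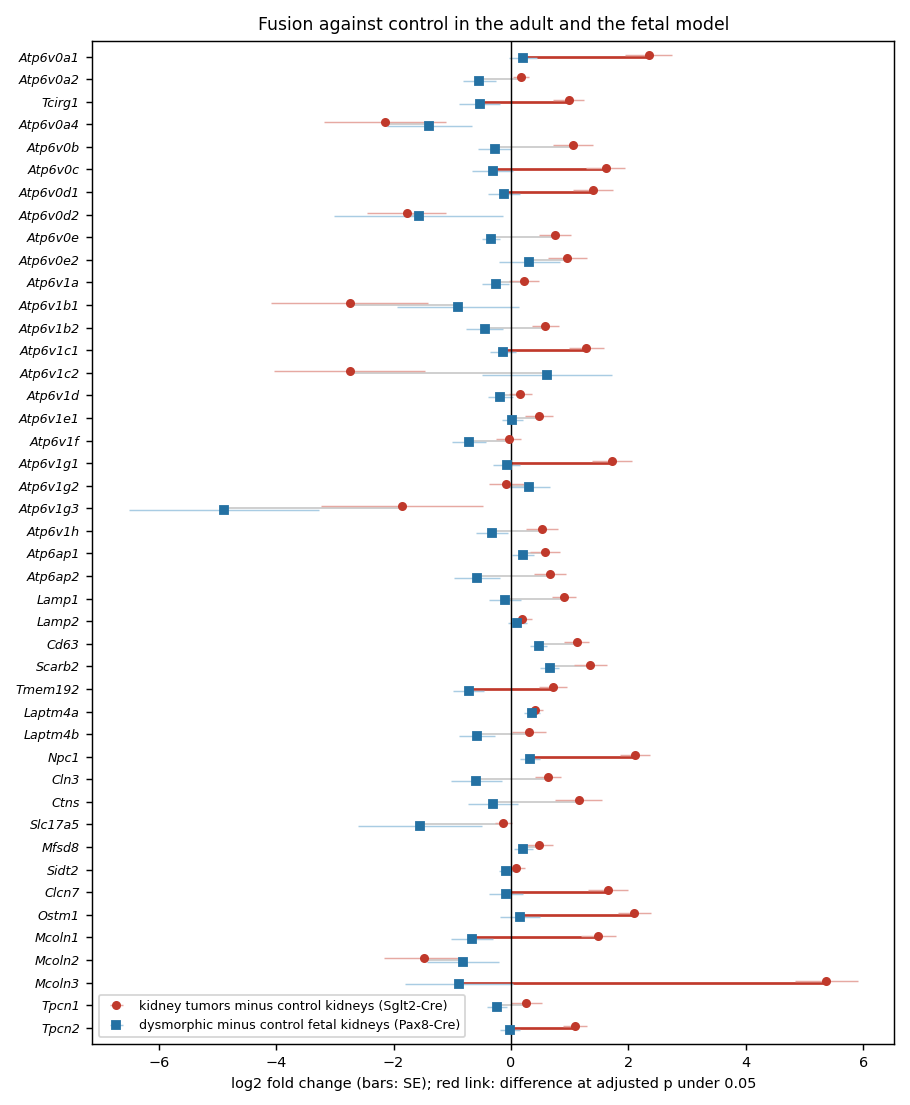
Log2 fold change of each of the 44 genes with its SE in kidney tumors against control kidneys (red circles, Sglt2-Cre) and in dysmorphic against control fetal kidneys (blue squares, Pax8-Cre). A red link joins the 13 genes whose effects differed at an edgeR adjusted p under 0.05, all with the adult effect to the right of the fetal one.

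Genes that work with the 44 were read from the same kidney tumor comparison with control kidneys. Of 12 genes for assembly and regulation of the V-ATPase, 11 were tested, 3 were called higher and 3 lower, beside 12.5% and 6.51% over all genes tested, which is the background for each of these lists. Dmxl2, a subunit of the RAVE-like complex that joins V1 to V0, rose by 2.58 (SE 0.27, edgeR adjusted p 0.000482), and its partner Wdr7 by 0.76, while Rogdi, of the same complex, fell by 1.18 (edgeR adjusted p 0.0144) and the paralog Dmxl1 by 0.86. Of 8 Ragulator and associated genes, which anchor mTORC1 signalling to the lysosome, 3 were higher, Lamtor1 (1.24), Lamtor3 (1.06) and Slc38a9 (0.63), and 0 lower. Of 14 further lysosomal membrane genes 4 were higher and 0 lower. They were Cd68 (3.98), a macrophage marker as well, Hgsnat (3.74), an acetyltransferase for heparan sulfate, Spns1 (1.56), a lysophospholipid transporter, and Pip4p1 (0.85). The median log2 fold changes of the 3 lists were 0.32, 0.24 and 0.51.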

How the data were processed

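The authors deposited raw counts per gene for 36 total RNA libraries, made with a stranded kit without ribosomal depletion. The submitters' processing notes name STAR 2.5.2a and GRCm38, and the counting tool and its strand setting are not given in the sources used here. Of the deposited counts from 1 to 20, 79.04% to 84.33% were even, so counts may hold each fragment more than once, and a fit on halved counts was run. Gene IDs were matched to GENCODE M21 symbols (53274 of 53379 without version). Libraries of 1 animal and group were summed, filtered with filterByExpr, scaled by TMM and tested with edgeR 4.0.16 (quasi-likelihood F-test, R 4.3.3), with Benjamini-Hochberg adjustment over all genes tested and a threshold of 0.05. The code was tested on simulated data. DESeq2 1.42.0, other scalings, no filter, every library as a sample, a joint fit and omission of each animal were alternatives. Mouse served as a block because tissues came from the same animals, and deviations of same-mouse tissues correlated at 0.00277 to 0.209 for kidney tumor and non-transformed kidney, 0.196 to 0.312 for kidney and retro-orbital tumor and -0.0875 to -0.0184 for kidney and brain tumor. The fetal title prefixes were used as a block of unstated meaning. Any of the 44 members could be named, and members with a promoter window were ranked by the number of fusion comparisons in which they were called and then by fold change, and promoters were shown for the called ones that held a motif and the first 2 without one. The members, gene lists and marker lists were chosen with earlier results of these data known. Fetuses are taken as separate animals from their labels. The p-values measure the spread between animals. Where tissues of the same mice were compared without the block, these tissues were treated as separate animals.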

Additional observations from a re-analysis of the deposited data

Results flagged for a closer look

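Of 176 levels of a member in a group of 4 to 6 animals, 17 had 1 sample far from the others, where chance at 1 in 20 would give 8.8. Dysmorphic fetus 5 was the highest for 6 genes, with Slc17a5 at 172 CPM (the next at 21.7 CPM), Atp6v0a1 at 169 CPM (127 CPM), Mcoln1 at 60 CPM (34.9 CPM), Tcirg1 at 35.1 CPM (20.5 CPM), Atp6v0e2 at 14.6 CPM (5.89 CPM) and Mcoln2 at 5.98 CPM (2.70 CPM). This fetus also had the most proximal tubule markers of the dysmorphic kidneys, 817 CPM against 22.6 to 137 CPM. Its neuron and glia markers (126 CPM against 19.4 to 29 CPM) and osteoclast markers (42.7 CPM against 4.69 to 20 CPM) were the highest as well. In control fetuses 1, 2 and 3 proximal tubule markers summed to 1339, 1110 and 1305 CPM, with Slc17a5 at 16.8, 152 and 242 CPM. The part of these markers in the levels of dysmorphic fetus 5 was not tested. Dysmorphic fetus 4 was the highest for Atp6v1c2 at 14.6 CPM (6.53 CPM) and dysmorphic fetus 2 for Atp6v1g3 at 1.74 CPM (0.339 CPM).

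The retro-orbital tumor of mouse 5 was the highest for all 5 intercalated cell isoforms, with Atp6v0a4 at 27.1 CPM (2.52 CPM), Atp6v0d2 at 17.8 CPM (5.18 CPM), Atp6v1b1 at 8.16 CPM (0.533 CPM), Atp6v1g3 at 7.40 CPM (0.583 CPM) and Atp6v1c2 at 2.78 CPM (0.190 CPM). Its proximal tubule markers summed to 1036 CPM, compared to 85.5 to 171 CPM in the other retro-orbital tumors. Its intercalated cell markers that are not members summed to 25.7 CPM, compared to 5.28 to 5.8 CPM in the others. The part of either list was not tested. The retro-orbital tumor of mouse 6 was the highest for Atp6v0e at 85.0 CPM (52.0 CPM) and Tmem192 at 52.7 CPM (42.2 CPM) and the lowest for Tpcn2 at 14.7 CPM (22.2 CPM). The non-transformed kidney of mouse 5 was the lowest for Atp6v0e at 33.5 CPM (59.3 CPM).

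The fusion effect differed between the adult and the fetal model for 13 genes (edgeR adjusted p in parentheses). The differences on the log2 scale were 6.32 for Mcoln3 (0.00372), 2.19 for Mcoln1 (0.013), 2.19 for Atp6v0a1 (0.0134), 1.97 for Atp6v0c (0.0239), 1.97 for Ostm1 (0.0122), 1.83 for Atp6v1g1 (0.0174), 1.82 for Npc1 (0.00212), 1.78 for Clcn7 (0.0276), 1.56 for Atp6v0d1 (0.0483), 1.55 for Tcirg1 (0.0447), 1.48 for Tmem192 (0.0253), 1.46 for Atp6v1c1 (0.0347) and 1.13 for Tpcn2 (0.0188).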

How the results depend on the processing

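The alternatives covered 123 pairs of a gene and a comparison, those with an unadjusted p under 0.05 and the intercalated cell isoforms in kidney tumors. Of their 2079 alternatives, 1771 kept the direction and the side of the threshold, 175 lost a call, 133 gained one and 0 changed direction. The 1771 include pairs that were not called and stayed so. The alternatives reuse the same samples and most pairs were chosen by their p, so a kept direction follows largely from the choice. Kidney tumors against controls gave 15 calls, 32 with every library as its own sample (28 higher and 4 lower), 32 with the kidney tumors of mice 4 and 5 left out, and 4 to 24 when an animal was left out. Against non-transformed kidneys the 21 calls became 7 with mouse as a block, 33 without the tumors of mice 4 and 5, and 10 to 18 when a mouse was left out. Retro-orbital against kidney tumors gave 5 calls, 10 by DESeq2, 6 with the block and 3 to 6 when a mouse was left out. Over all genes DESeq2 called 5996 of 22136 there, compared to 3919 by edgeR. Brain against kidney tumors gave 4, 8 by DESeq2, 8 in the joint fit and 0 with the block. The count was 2 without the tumors of mice 4 and 5, and 0 to 3 when a mouse was left out. Over all genes 2044 of 23391 were called, 5115 of 23391 by DESeq2 and 5933 of 23641 in the joint fit. Brain against retro-orbital tumors gave 0, 3 by DESeq2 and 2 in the joint fit, beside 364 of 21037, 3087 of 21037 and 3096 of 23641 over all genes. Fetal kidneys gave 0, 1 with upper quartile scaling and 3 by DESeq2, beside 605, 607 and 2722 of 22690 over all genes. The difference between models gave 13, 21 without the tumors of mice 4 and 5, and 5 to 15 when an animal was left out. The causes were not tested. Without exon length, shares in control kidneys were 63.7% for Atp6v0a4, 50.3% for Atp6v0d2, 16.7% for Atp6v1c2 and 68.3% for Atp6v1g3. The fetal prefix block left the count at 0 (11 at an unadjusted p under 0.05, 7 without it). For fetal kidneys the joint fit and every library as a sample equal the values given, and a mouse block for brain against retro-orbital tumors was not run, since only mouse 2 had both. Where an arm was left with few animals, its spread was taken from the other samples of the fit.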
